A study of Mus musculus with 6 samples.

Results

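The adenylyl cyclases are the membrane enzymes that make cAMP, and their 9 genes, Adcy1 to Adcy9, were followed here in the prelimbic cortex (PLc) of mice given sub-chronic ketamine or saline. The members were taken by gene symbol, 9 of the 37620 genes listed, and all 9 passed the filter on low values that left 16127 genes for testing. All 6 mice were C57Bl/6 and 9 weeks old. In the ketamine group (mice 3, 5 and 9), 30 mg/kg was injected intraperitoneally once a day for 5 days, and the saline group (mice 1, 6 and 10) received the vehicle on the same days. The PLc was dissected 2 days after the last injection, and each mouse gave a single RNA library. The reads assigned to genes, recovered from the normalized values, numbered 26273436 to 32643726 per library. Values are normalized counts, that is, reads per gene divided by the authors' size factor for the library.

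Adenylyl cyclases convert ATP to cAMP, which activates protein kinase A (PKA), the Epac exchange factors and cyclic nucleotide-gated channels. All 9 membrane forms are stimulated by the G protein Gs, and they differ in how they read calcium and other G-protein signals. Adcy1, Adcy3 and Adcy8 encode the group stimulated by calcium and calmodulin, of which the products of Adcy1 and Adcy8 couple neuronal calcium entry to cAMP in synaptic plasticity. Adcy2, Adcy4 and Adcy7 encode the group that G-protein beta-gamma subunits stimulate further. Adcy5 and Adcy6 encode the group inhibited by calcium and by Gi, and the Adcy5 product is the main cyclase of striatal medium spiny neurons, downstream of dopamine and adenosine receptors. Adcy9 encodes the form least sensitive to forskolin.

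Some libraries carried markers of other brain regions, and these are given first because members are set beside them below. The summed level of 14 striatal marker genes was 9379 to 11308 normalized counts in saline mice. It reached 63509 and 31584 in ketamine mice 3 and 5 and was 10720 in mouse 9. All 13 of the striatal markers that were tested had a positive log2 fold change, and the untested marker, Six3, was at 0 in saline mice 1 and 6 and ketamine mouse 9. The summed level of 5 olfactory bulb markers was 171 to 235 in saline mice, then 1483 and 1196 in ketamine mice 3 and 5 but 8801 in mouse 9, with all 5 log2 fold changes positive. Markers of cortical excitatory neurons, 8 genes including Slc17a7, were present in every library. They summed to 73904, 71787 and 49359 in saline mice 1, 6 and 10, and to 30636, 55518 and 46491 in ketamine mice 3, 5 and 9. All 8 had a negative log2 fold change. The sum over 7 markers of GABAergic neurons was 20929 to 25619 under saline and 27452 to 42612 under ketamine. Of these markers, 3 had a log2 fold change above 0 and 4 below. Gad1, Gad2 and Slc32a1 were higher and Pvalb and Sst lower in every ketamine mouse than in any saline mouse, while Vip and Lhx6 overlapped. Among all genes tested, 5.69% were higher and 4.66% lower in this way. Saline mouse 10 stood apart in 6 oligodendrocyte markers, at 375413 normalized counts against 55579 and 43443 in saline mice 1 and 6 and 104408 to 159720 in ketamine mice. The same mouse had 3070 normalized counts over 4 choroid plexus markers, where the other libraries had 72.8 to 734. In tissue of this kind, fewer cells of a type and less RNA per cell cannot be told apart. The olfactory bulb sum was raised in every ketamine mouse, and the striatal sum in ketamine mice 3 and 5. For genes that follow these markers, the tissue dissected and the treatment cannot be told apart.

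Because the genes are related, their coding sequences were compared to see whether a read could fit more than 1 of them. The stretch of 60 coding bases of Adcy1 with the most matches summed over the other members is given for all 9 members. Each is the best ungapped match to Adcy1 in the longest coding transcript of GENCODE M1, and it lies in the second catalytic domain of the enzyme (coding bases 2976 to 3035 of Adcy1, counted from the first base of the start codon). Capitals mark bases that differ from Adcy1.
Adcy1: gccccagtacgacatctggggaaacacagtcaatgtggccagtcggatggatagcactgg
Adcy8: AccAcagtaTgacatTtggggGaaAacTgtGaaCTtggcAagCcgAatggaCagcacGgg
Adcy3: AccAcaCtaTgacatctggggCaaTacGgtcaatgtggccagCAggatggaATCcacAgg
Adcy2: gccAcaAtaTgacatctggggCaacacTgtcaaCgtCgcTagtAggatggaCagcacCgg
Adcy4: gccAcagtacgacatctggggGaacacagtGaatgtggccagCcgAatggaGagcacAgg
Adcy7: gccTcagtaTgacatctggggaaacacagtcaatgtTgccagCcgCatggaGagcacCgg
Adcy5: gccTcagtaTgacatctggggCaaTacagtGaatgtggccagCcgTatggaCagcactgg
Adcy6: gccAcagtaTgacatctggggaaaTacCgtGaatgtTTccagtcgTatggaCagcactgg
Adcy9: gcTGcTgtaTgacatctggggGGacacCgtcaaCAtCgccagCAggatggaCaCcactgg
Even here each gene differed from Adcy1 at 7 to 15 of 60 bases. Over the 36 pairs of members, coding identity was 55.5% to 72.5%, highest between Adcy5 and Adcy6, and the longest run of identical bases was 33, between Adcy4 and Adcy8. Windows of 100 bases, the length of a sequencing read, were taken from the annotated protein-coding transcripts of the 9 genes. Of the 3479 to 12160 windows per gene, 0 occurred in a protein-coding transcript of another gene. A read without mismatches would therefore fit the protein-coding transcripts of only 1 member. Other transcripts, such as those of pseudogenes, were not searched. Adcy3 was the only member that shares exon bases with another annotated gene.

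In saline mice the family had a fixed order of levels. Levels of different genes are compared here as normalized counts per kilobase of exon (mean ± SD, n = 3). Adcy1 was highest at 2137 ± 270 (SD), and Adcy2 followed at 1482 ± 431. Adcy5 stood at 619 ± 63.0, Adcy9 at 372 ± 45.9 (SD) and Adcy3 at 299 ± 53.2. The lower members were Adcy6 at 253 ± 32.4, Adcy8 at 133 ± 11, Adcy7 at 42.6 ± 8.01 and Adcy4 at 32.3 ± 5.58. The order was identical in all 3 saline mice, although the ranges of Adcy3 and Adcy6 overlapped between mice, and so did those of Adcy7 and Adcy4. Adcy1 and Adcy2 made up 40.1% ± 6.01 and 27.3% ± 5.79 of the summed level (SD, n = 3). Adcy1 and Adcy2 were only just apart, since the lowest saline value of Adcy1, 1840 per kilobase, was close to the highest of Adcy2, 1761. Adcy9 and Adcy3 were also only just apart, with the lowest saline value of Adcy9 at 344.1 and the highest of Adcy3 at 331.0.

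The order was not kept in every ketamine mouse. Ketamine mouse 5 had the saline order in every rank. In ketamine mouse 3, Adcy5 was the highest member at 2211 per kilobase, above Adcy1 at 1084 and Adcy2 at 1072. In ketamine mouse 9, Adcy2 was highest at 1020, followed by Adcy1 at 533 and Adcy5 at 461, and Adcy7 at 16.9 was lowest, below Adcy4. The summed level of the family was 4746 to 6029 per kilobase in saline mice, then 5392 and 5633 in ketamine mice 3 and 5 but 2711 in mouse 9, so that only mouse 9 lay outside the saline range.

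**Figure D1:**
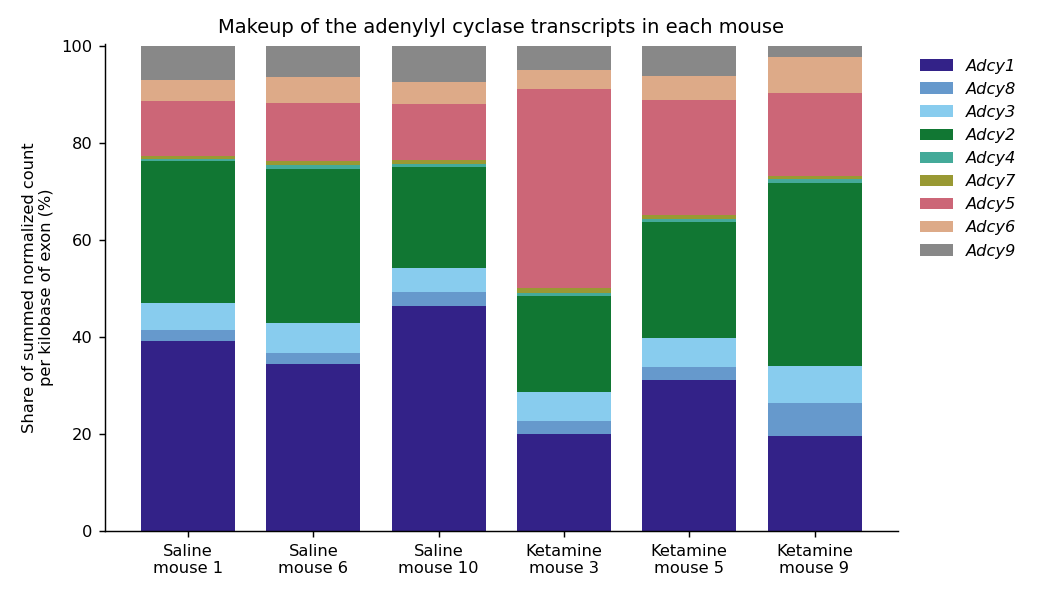
Stacked bars show the share of each adenylyl cyclase in the summed normalized count per kilobase of exon (y axis, percent) in each of the 6 mice (x axis). Adcy1 took 34.5% to 46.4% under saline and 19.7% to 31.3% under ketamine, while Adcy5 took 11.2% to 11.9% and 17% to 41.0%.

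The shares of the members in the family total were set beside each other next. The share of Adcy5 was 11.2%, 11.9% and 11.6% in saline mice 1, 6 and 10, while ketamine mice 3, 5 and 9 had 41.0%, 23.8% and 17%. The calcium-stimulated group (Adcy1, Adcy3 and Adcy8) made up 42.9% to 54.4% under saline and 28.7% to 39.7% under ketamine. The calcium-inhibited group (Adcy5 and Adcy6) made up 15.5% to 17.2% and 24.5% to 45%. These ranges did not overlap, whereas those of the group stimulated by beta-gamma subunits (Adcy2, Adcy4 and Adcy7) did, at 22.1% to 33.5% and 21.5% to 39.3%. Within the calcium-stimulated and calcium-inhibited groups, only the shares of Adcy1 and Adcy5 did not overlap between saline and ketamine mice. The share of Adcy6 was 4.32% to 5.28% under saline and 3.96% to 7.49% under ketamine, with the 7.49% in mouse 9. The mean shares of Adcy3 (5.55% and 6.49%) and Adcy8 (2.5% and 4.01%) were not lower under ketamine. A share also depends on the other members. In ketamine mouse 9 the levels of Adcy5 (461 per kilobase) and Adcy6 (203) were below those of every saline mouse, although their joint share was above. The ratio of Adcy1 to Adcy5 per kilobase, which does not depend on the scaling of a library, was 3.51, 2.90 and 4.0 in saline mice 1, 6 and 10, while ketamine mice 3, 5 and 9 had 0.49, 1.31 and 1.16. The ratio of Adcy1 to Adcy2 per kilobase overlapped between the groups, with a range of 1.08 to 2.23 under saline against 0.523 to 1.29 under ketamine. By level alone, 10.3% of the genes tested had no overlap between the groups. A background of this kind was not worked out for shares or ratios. All shares and ratios given here are descriptions, for which no test was made.

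Expression of each gene was then compared between ketamine and saline with limma on log2(normalized count + 1), a scale on which the fold change of low genes is understated. At an adjusted p under 0.05, limma called 0 of the 9 members, against a background of 0% of the 16127 genes tested. At an unadjusted p under 0.05, limma found 1 member, Adcy1, where the background was 5.81% of genes. On reads recovered from the normalized counts, edgeR called 0 members (background 0%) and DESeq2 called 0 members (background 1.12%). At an unadjusted p under 0.05, edgeR found no member (background 6.21%) and DESeq2 found Adcy1 and Adcy5 (background 6.54%). Of the 9 log2 fold changes, 2 were above 0 and 7 below, with a median of -0.14. Over all genes tested the median was -0.01, with 7572 above 0 and 8555 below. The groups did not overlap for 2 members (background 10.3%). Adcy8 was the 1 member higher in every ketamine mouse (background 5.69%), and Adcy1 the 1 member lower in every ketamine mouse (background 4.66%). Reads were also simulated from the means and dispersions of the real data, with 200 of 16127 genes changed. Each gene had a single dispersion for both groups. In the real data the SD of log2 values was larger in ketamine than in saline mice for 65.1% of genes. The simulated rates may therefore not carry over to the real data. At 2-fold, limma recovered 9.5% of the changed genes, edgeR 0% and DESeq2 52.5%, with 2, 2 and 35 false calls. At 4-fold they recovered 83.0%, 82.5% and 89.5%, with 13, 14 and 58 false calls.

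**Figure D2:**
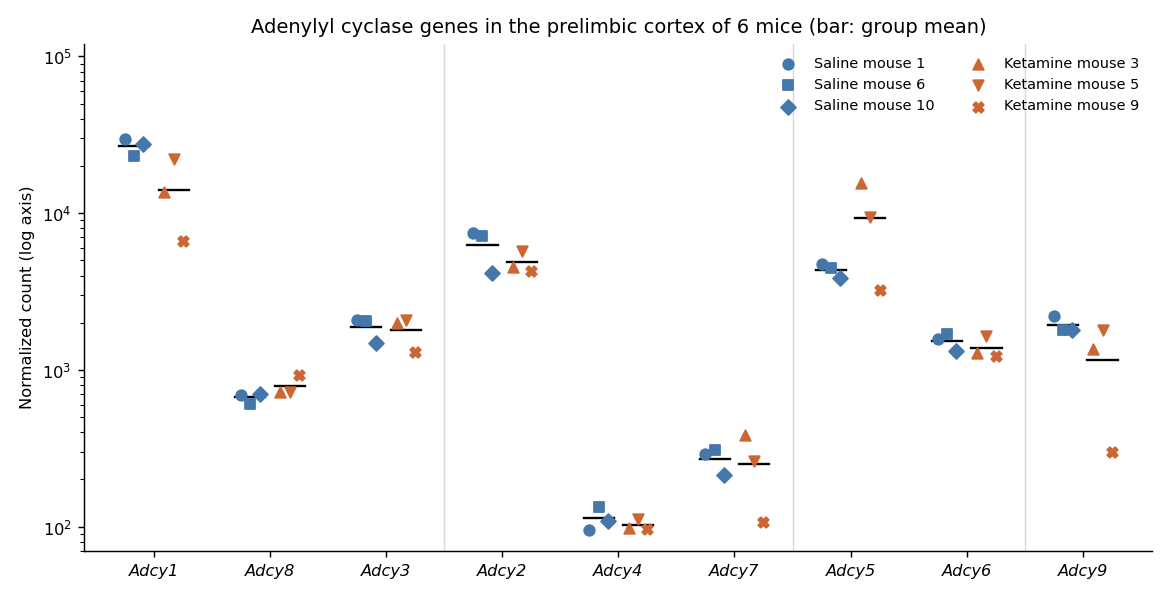
Each point is the normalized count (y axis, log scale) of an adenylyl cyclase gene (x axis, ordered by regulatory group) in a single mouse, with saline in blue, ketamine in orange and the group mean as a bar. Adcy1 lies lower in all 3 ketamine mice than in any saline mouse, Adcy5 is high in ketamine mice 3 and 5, and Adcy9 and Adcy7 are low in ketamine mouse 9.

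Adcy1 (ENSMUSG00000020431) is a plus-strand gene of chromosome 11 in mm9, from 6963492 to 7078509, with 12522 exon bases and no overlapping gene. It had 29639.5, 23038 and 27593 normalized counts in saline mice 1, 6 and 10, while ketamine mice 3, 5 and 9 had 13573, 22042 and 6676. No ketamine mouse reached the lowest saline mouse, mouse 5 missing it by a small margin and mouse 9 by a large one (two-sided exact permutation p = 0.1, which is the lowest possible with 3 mice against 3). The means were 26757 ± 3379 and 14097 ± 7696 normalized counts (SD, n = 3 each), and limma put the log2 difference at -1.08 (standard error 0.402, 95% confidence interval -2.02 to -0.14, unadjusted p = 0.0304, adjusted p = 0.784 by limma), rank 625 of 16127 genes by p. Without ketamine mouse 9 it was -0.62 (adjusted p = 0.471 by limma). The 2 ketamine mice with the least Adcy1, mice 9 and 3, also had less of the cortical excitatory markers than ketamine mouse 5, but in the reverse order. The part of these markers in the result was not tested.

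Adcy8 (ENSMUSG00000022376), on the minus strand of chromosome 15 from 64530604 to 64753858, encodes the other calcium-stimulated cyclase of synapses. Its values were 693, 604 and 706 normalized counts in saline mice 1, 6 and 10, while ketamine mice 3, 5 and 9 had 726, 722 and 930.0. The ketamine mice were all above the saline mice, though mice 3 and 5 only by a few percent of the level (exact permutation p = 0.1). Adcy8 was also the least variable member in saline mice, with a coefficient of variation of 8.29%. The log2 fold change was 0.24 (standard error 0.155, 95% confidence interval -0.12 to 0.60, adjusted p = 0.999 by limma), and without ketamine mouse 9 it was 0.12. The ratio of Adcy1 to Adcy8 per kilobase was 15.3 to 17.2 in saline mice, against 7.51, 12.3 and 2.88 in ketamine mice 3, 5 and 9.

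Adcy3 (ENSMUSG00000020654), on the plus strand of chromosome 12 from 4133103 to 4213525, encodes the cyclase of olfactory cilia and of primary cilia on neurons. It shares 1380 exon bases with Cenpo on the other strand, which averaged 98.9 normalized counts. Adcy3 itself had 2067, 2049 and 1482 normalized counts in saline mice 1, 6 and 10, while ketamine mice 3, 5 and 9 had 1990, 2088 and 1292. Saline mouse 10 and ketamine mouse 9 were low and the other mice were close together, so that the groups overlapped. The log2 fold change was -0.08 (95% confidence interval -0.61 to 0.46, adjusted p = 0.999 by limma). Its direction turned when saline mouse 1, saline mouse 6 or ketamine mouse 9 was left out, with values of 0.0067, 0.0003 and 0.14.

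Adcy2 (ENSMUSG00000021536), on the minus strand of chromosome 13 from 68758920 to 69138419, was the highest member of the beta-gamma-stimulated group. It had 7417, 7157 and 4152 normalized counts in saline mice 1, 6 and 10, while ketamine mice 3, 5 and 9 had 4514, 5726 and 4295. Saline mouse 10, the mouse with the most oligodendrocyte marker RNA, was below every ketamine mouse, while the other saline mice were above them. The log2 fold change was -0.33 (standard error 0.249, 95% confidence interval -0.91 to 0.26, adjusted p = 0.999 by limma). Without saline mouse 10 it was -0.60, where limma's unadjusted p was 0.0115 and its adjusted p 0.31. The part of the oligodendrocyte and choroid plexus markers in this value was not tested.

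Adcy4 (ENSMUSG00000022220), on the minus strand of chromosome 14 from 56387895 to 56402879, was the lowest member, with 95.8, 134 and 109 normalized counts in saline mice 1, 6 and 10. Ketamine mice 3, 5 and 9 had 97.9, 112 and 96.1, inside the range of the saline mice. Its log2 fold change was -0.13 (95% confidence interval -0.62 to 0.35, adjusted p = 0.999 by limma). The summed level of 6 endothelial markers was 4258 to 4796 normalized counts over all mice, within which Cldn5 ran from 639 to 1295 in ketamine mice.

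Adcy7 (ENSMUSG00000031659), on the plus strand of chromosome 8 from 90796302 to 90853861, encodes a cyclase best known from immune cells. It had 290.2, 307 and 212 normalized counts in saline mice 1, 6 and 10, while ketamine mice 3, 5 and 9 had 386, 262 and 107. Mouse 3 was above and mouse 9 below all saline mice, so that the mean difference of -0.27 on the log2 scale had a wide interval (95% confidence interval -1.31 to 0.78, adjusted p = 0.999 by limma). The direction turned without ketamine mouse 9, at 0.25. Over 5 microglia markers the summed level was 6785 to 7892 under saline and 7062 to 7267 under ketamine, and among these markers C1qa was the most variable, at 928 to 1632 in ketamine mice. Their part in the values of Adcy7 was not tested.

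Adcy5 (ENSMUSG00000022840), on the plus strand of chromosome 16 from 35154963 to 35305823, had 4721, 4441 and 3856 normalized counts in saline mice 1, 6 and 10. Ketamine mice 3, 5 and 9 had 15491.5, 9401 and 3231, so that mice 3 and 5 were far above, and mouse 9 below, every saline mouse. The means were 4339 ± 441 and 9375 ± 6130 normalized counts (SD, n = 3 each), and limma put the log2 difference at 0.85 (standard error 0.513, 95% confidence interval -0.36 to 2.05, adjusted p = 0.999 by limma, exact permutation p = 0.4). Without ketamine mouse 9 it was 1.48 (adjusted p = 0.142 by limma), without ketamine mouse 3 it was 0.35, and with mouse 9 as the only ketamine mouse it was -0.42. The DESeq2 estimate was 1.11 (unadjusted p = 0.0157, adjusted p = 0.438). Adcy5 stood in the same order as the striatal marker sum in the ketamine mice, highest in mouse 3 and lowest in mouse 9. The part of the striatal markers in the values of Adcy5 was not tested.

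Adcy6 (ENSMUSG00000022994), on the minus strand of chromosome 15 from 98420425 to 98438064, encodes the nearest relative of the Adcy5 product. It had 1566, 1696 and 1312 normalized counts in saline mice 1, 6 and 10, while ketamine mice 3, 5 and 9 had 1285, 1644 and 1221. The groups overlapped, and the log2 fold change was -0.14 (standard error 0.168, 95% confidence interval -0.54 to 0.25, adjusted p = 0.999 by limma). The ratio of Adcy5 to Adcy6 per kilobase was 2.25 to 2.59 in saline mice and 2.27 in ketamine mouse 9, but 10.4 and 4.91 in ketamine mice 3 and 5.

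Adcy9 (ENSMUSG00000005580), on the minus strand of chromosome 16 from 4287529 to 4420498, had 2206, 1788 and 1798 normalized counts in saline mice 1, 6 and 10. Ketamine mice 3, 5 and 9 had 1351, 1801 and 301, so that mouse 5 was level with the saline mice and mouse 9 stood at -2.67 from the saline mean on the log2 scale. The means were 1931 ± 239 and 1151 ± 769.6 normalized counts (SD, n = 3 each), and limma put the log2 difference at -1.09 (standard error 0.609, 95% confidence interval -2.52 to 0.34, unadjusted p = 0.115, adjusted p = 0.999 by limma), close to that of Adcy1. By DESeq2 it was -0.75, against -0.92 for Adcy1. Without ketamine mouse 9 it shrank to -0.30. A pseudogene, Gm6142, lies within Adcy9 on the same strand but shares no exon base with it.

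**Figure D3:**
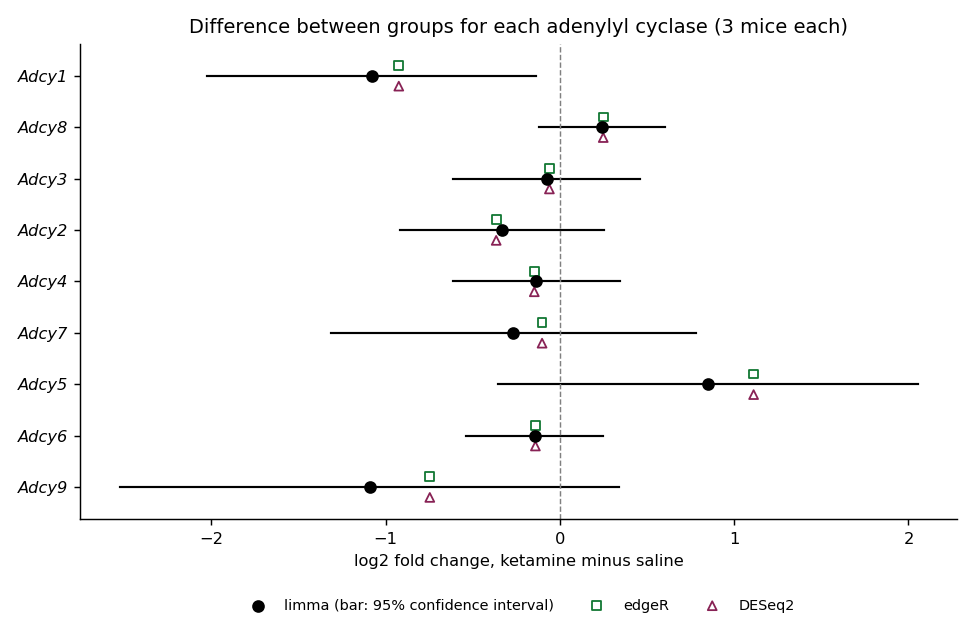
Black points give the log2 fold change of each adenylyl cyclase, ketamine minus saline, by limma with its 95% confidence interval, beside the estimates of edgeR (squares) and DESeq2 (triangles). Only the interval of Adcy1, from -2.02 to -0.14, leaves out 0, and no member passes adjustment over all genes.

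The members also differed in how far the mice of a group spread. The SD of log2 values in saline mice was 0.12 to 0.47 over the 9 members. In ketamine mice it was 0.87 for Adcy1, 0.94 for Adcy7, 1.16 for Adcy5 and 1.38 for Adcy9, and 0.12 to 0.38 for the other members. Only 2.06% of all genes tested had a larger SD than Adcy9 in ketamine mice, and 3.20% had a larger one than Adcy5, whereas 53.6% and 59.9% exceeded these genes in saline mice. The coefficient of variation passed 50% for 4 members in ketamine mice and for 0 in saline mice, against 8.32% and 6.41% of all genes. The SD was larger in ketamine than in saline mice for 7 of the 9 members and for 65.1% of all genes.

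Ketamine mouse 9 departed from saline mice in the most members, and also in the largest share of all genes. It was below every saline mouse for 6 of them (Adcy1, Adcy3, Adcy5, Adcy6, Adcy7 and Adcy9) and above for 1, Adcy8. Among all genes tested, 34.3% were below and 34.4% above every saline mouse in mouse 9. Ketamine mouse 3 was below every saline mouse for Adcy1, Adcy6 and Adcy9 and above for Adcy5, Adcy7 and Adcy8, where 28.7% and 26.0% of all genes lay outside in these directions. Ketamine mouse 5 was below for Adcy1 alone and above for Adcy3, Adcy5 and Adcy8 (25.4% and 24% of all genes). Mouse 9 was also the library with the highest olfactory bulb markers, and their part in these values was not tested.

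**Figure D4:**
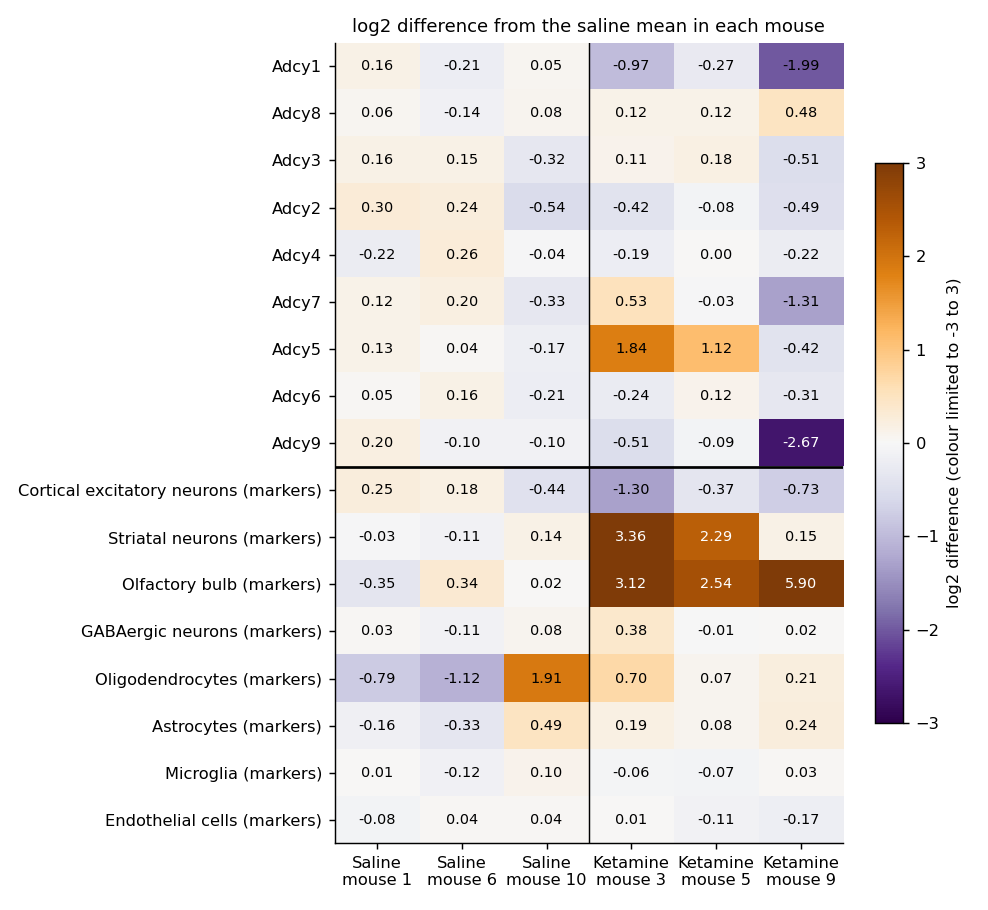
Numbers and colours give the log2 difference of each mouse (columns) from the mean of the saline mice, for the 9 adenylyl cyclases (upper rows) and for the mean over marker genes of 8 cell types or regions (lower rows). Adcy5 is high in ketamine mice 3 and 5, where striatal markers are at 3.36 and 2.29, and Adcy9 is at -2.67 in ketamine mouse 9, where olfactory bulb markers are at 5.90.

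The genes whose pattern over the 6 mice was most like that of each member were sought by Pearson's r of log2 values among the 12369 other genes whose mean reached 100 normalized counts. With 6 values a high r is common, since 4 to 304 genes had an r above 0.95 with a given member, so these names are a description. For Adcy5 they were Wdr44 (r = 0.997), Drd1a, the dopamine D1 receptor gene (0.997), and Ric8b, which encodes a chaperone of the striatal and olfactory G protein Golf (0.991). Drd1a had 184 to 237 normalized counts in saline mice, against 2631, 1237 and 116 in ketamine mice 3, 5 and 9. Ric8b had 1051 to 1167 in saline mice, against 1902, 1423 and 958 in ketamine mice. Gnal, the gene of the Golf alpha subunit, was looked up after these values were seen, and it had 3471 to 6017 normalized counts in saline mice against 12371, 9047 and 3360 in ketamine mice 3, 5 and 9.
For Adcy1 the most alike were Atp2c1, which encodes a Golgi calcium pump (r = 0.998), Arhgef3 (0.997) and Trim2 (0.995). For Adcy9 they were Zdhhc23 (0.999), Iqsec1 (0.997) and Dopey2 (0.997), and Zdhhc23 measured 235 to 290.2 normalized counts in the saline mice against 187, 244 and 41.7 in ketamine mice 3, 5 and 9. Adcy2 was most like Syn2, which encodes the vesicle protein synapsin II (0.998), Kcnc4 (0.997) and Cobl (0.995). Adcy3 was most like Dtnb (0.998), the phosphodiesterase gene Pde2a (0.997) and Tef (0.997). Adcy6 was most like Epha10 (0.997), Vwa3a (0.996) and Fam38a (0.995), and Adcy7 most like Mettl13 (0.996), Dock8 (0.991) and Elac1 (0.991). Adcy8 was most like Cdk5rap1 (0.993), Hnrnpab (0.989) and Slc9a3r1 (0.986), and Adcy4 most like Acad10 (0.966), Nr1d2 (0.959) and Hps1 (0.954).

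The rest of the cAMP pathway was read from 8 lists holding 118 genes, of which 116 were found in the table and 112 tested. limma called 0 of them at an adjusted p under 0.05 (background 0%), and at an unadjusted p under 0.05 it found 15 higher and 4 lower, where the background was 3.44% and 2.37% of genes. edgeR called 0. DESeq2, which recovered more changed genes than limma or edgeR in the simulated reads, with more false calls, called 8 higher and 0 lower. The background was 0.893% and 0.229%. The called genes were Gng4, Adora2a, Vipr2, Gpr6, Adra2a, Drd3, Htr1d and Grm4, of which 7 encode receptors and Drd3 falls outside the rule for named genes. The lists share 4 genes with the striatal markers, Adora2a and Gpr6 among those called. The median log2 fold change of all pathway genes tested was 0.0044.

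Upstream of the cyclases, the Gs-coupled receptors showed a median log2 difference of 0.17 over 18 tested genes, with 12 above 0 and 6 below. Vipr2, Adora2a and Gpr6 had the smallest p. Vipr2, a receptor gene for the peptides VIP and PACAP, had 16.3 to 28.6 normalized counts across saline mice, and ketamine mice 3, 5 and 9 had 85.2, 114 and 359. Adora2a, an adenosine receptor gene of striatal neurons, had 67.0 to 93.3 normalized counts in saline mice, against 2395, 965 and 127 in ketamine mice 3, 5 and 9. Gpr6, an orphan receptor gene of the same neurons, had 27.4 to 33.8 in saline mice, against 624, 252 and 41.7 in ketamine mice. Both followed the order of Adcy5 in ketamine mice 3 and 5 but stayed just above the saline mice in mouse 9, where Adcy5 was below them. The Gi-coupled receptors had a median of -0.08 over 28 genes, with 12 above 0 and 16 below. Adra2a, Htr1d and Grm4 ranked first among them by p. Adra2a, the alpha-2A adrenergic receptor gene, had 328 to 385 normalized counts across saline mice and 650.0 to 863 across ketamine mice, and it had the lowest p of the pathway by limma, while Htr1d had the lowest by DESeq2 (for Adra2a, log2 fold change 1.1, adjusted p = 0.173 by limma, 4.94e-06 by DESeq2). Grm4, a metabotropic glutamate receptor gene, had 377 to 639.9 normalized counts in saline mice and 993 to 1134 under ketamine (log2 difference 0.96 ± 0.224 SE, limma adjusted p = 0.401, DESeq2 adjusted p = 0.0263).

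Among the G-protein subunits and calmodulin, 20 tested genes showed a median log2 difference of 0.0033, with 10 above 0 and 10 below. Gng4, Gng2 and Gng7, which encode gamma subunits, had the smallest p. Gng4 had 882 to 1345 normalized counts in saline mice against 2787, 2656 and 7543 in ketamine mice 3, 5 and 9 (log2 fold change 1.74, adjusted p = 0.401 by limma, 0.00102 by DESeq2). Gng4 and Vipr2 were highest in ketamine mouse 9, as the olfactory bulb markers were, and the part of those markers was not tested. Gng2 had 5617 to 6146 in the saline group and 3564 to 4573 in the ketamine group (log2 fold change -0.50, adjusted p = 0.579 by limma). Gng7, the gamma subunit that pairs with Golf in the striatum, had 2231 to 3321 in saline mice against 12092, 7421 and 2567 in ketamine mice 3, 5 and 9 (adjusted p = 0.851 by limma).

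Downstream of the cyclases, the PKA subunits and inhibitors showed a median log2 difference of 0.0058 over 9 genes, within -0.30 to 0.35, and their smallest p-values, those of Pkig, Prkar1b and Prkar2b, were all above 0.2 by limma (adjusted p = 0.999 for each). The CREB family and its coactivators, 9 genes, lay within -0.27 and 0.36 with a median of -0.09, and Crtc3, Crem and Crtc1 led them with adjusted p-values by limma of 0.919 to 0.999. Among 12 other effectors and anchors the median was -0.09, with 3 above 0 and 9 below. In that list Akap7, a PKA anchor gene, had 1151 to 1563 normalized counts in the saline group and 910.3 to 1057 in the ketamine group (adjusted p = 0.713 by limma). Rapgef4, which encodes the cAMP sensor Epac2, had 14686 to 20992 in the saline group and 8462 to 13778 in the ketamine group (log2 fold change -0.65, adjusted p = 0.768 by limma). Akap7 and Rapgef4, 2 of these 12 genes, were lower in every ketamine mouse than in any saline mouse (background 4.66% of genes). Rapgef3, which encodes Epac1, had a log2 fold change of 0.31 (adjusted p = 0.986 by limma).

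Of the 16 phosphodiesterases that break down cAMP, 11 had a log2 fold change above 0 and 5 below, with a median of 0.06. Pde1c, Pde1b and Pde1a, which encode the calcium- and calmodulin-activated forms, had the smallest p. Pde1c had 128 to 257 normalized counts in saline mice against 727, 412 and 281 in ketamine mice 3, 5 and 9 (log2 fold change 1.33, adjusted p = 0.619 by limma). Pde1b had 3518 to 4417 in saline mice against 12017, 7925 and 4224 in ketamine mice (0.89, adjusted p = 0.821 by limma). Pde1a had 4286 to 8625 and 2769 to 6008, with a log2 fold change of -0.54 (adjusted p = 0.999 by limma). Pde1b, like Adcy5, was high in the ketamine mice with the high striatal marker sums, but in mouse 9 it was inside the saline range, where Adcy5 was below it.
The soluble cyclase Adcy10, which bicarbonate stimulates, had 15.3, 9.65 and 9.88 normalized counts in saline mice 1, 6 and 10, while ketamine mice 3, 5 and 9 had 3.92, 7.53 and 5.44. Its mean was under the filter of 10, so it was not tested, and at this depth its values rest on few reads.

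**Figure D5:**
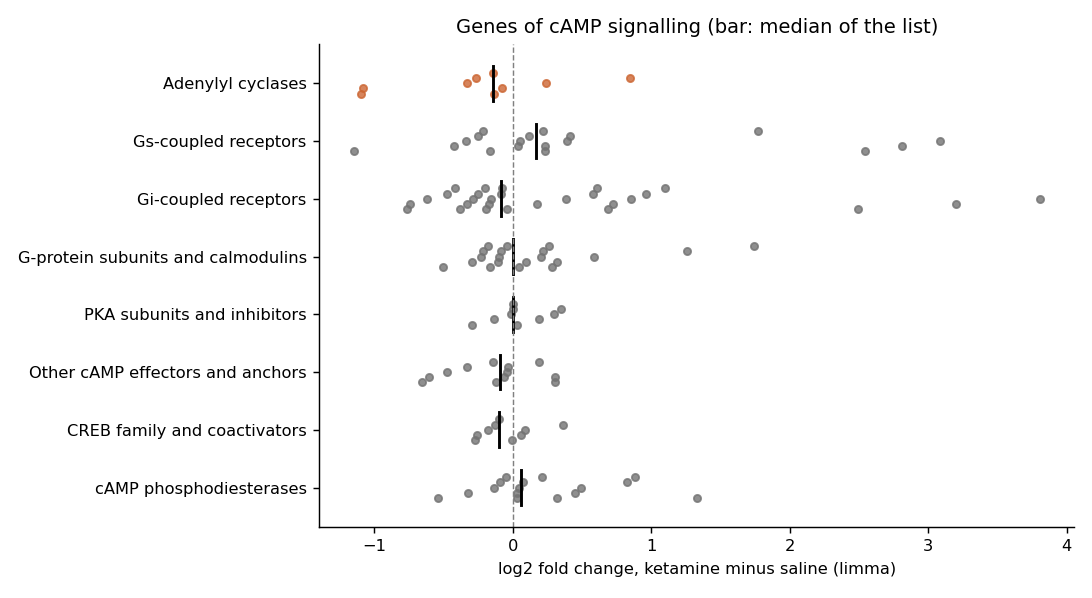
Each point is the log2 fold change of a tested gene, ketamine minus saline by limma (x axis), in the adenylyl cyclases (orange) and 7 lists of cAMP signalling genes (grey), with the median of each list as a bar. Medians lie between -0.14 and 0.17, and the widest spread is among the receptors.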

How the data were processed

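The authors aligned 100-base paired-end reads to mm9 with Tophat 2.0.11, counted them with HTSeq, and deposited a signal for every gene, namely its count over the size factor of that library. The annotation and strand setting are not given in the sources used here. Whole reads were recovered for 100.0% of values in each library (tolerance 0.02 normalized counts). Groups came from the sample titles, and each column was matched by mouse number. Each library came from a separate mouse.

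Log2(normalized count + 1) was compared with limma 3.58.1 (R 4.3.3; prior variance following the mean) over the genes averaging 10 normalized counts or more. All tests were two-sided, p-values were adjusted by Benjamini-Hochberg (threshold 0.05), and edgeR 4.0.16 and DESeq2 1.42.0 were run on recovered reads as alternatives. DESeq2 was the tool named in the study's methods, and limma was taken as the main test because the deposited values are not raw counts. Other pseudocounts, filters, scalings and variance priors were tried, and mice were left out in turn. The fits were tested on simulated reads. Positions and exon lengths are from GENCODE M1 on mm9, which held 37205 of the 37620 identifiers. The members, lists and tests were chosen with earlier results of these data known. All 9 members were named, with the 3 genes of smallest p in each pathway list and the 3 most alike genes per member. The symbols Drd1, Ric8a and Syndig1l were matched through synonyms, and 2 genes of a list were not analysed here.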

Additional observations from a re-analysis of the deposited data

How the results depend on the processing

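The 9 log2 fold changes were recomputed under 17 alternatives, giving 153 values, of which 148 kept their direction and 0 passed the threshold. With each mouse left out in turn, the values ran from -1.48 to -0.62 for Adcy1, from 0.35 to 1.48 for Adcy5, from -1.59 to -0.30 for Adcy9, from -0.23 to 0.14 for Adcy3 and from -0.67 to 0.25 for Adcy7. Adcy5 turned to -0.42 when ketamine mice 3 and 5 were both left out, and the median of the members then moved from -0.14 to -0.49. In that fit 1 ketamine mouse was assumed to vary like the saline mice. The count of genes called was 0 with limma, 0 to 1 with a mouse left out (1 without ketamine mouse 5 and 1 without ketamine mouse 9) and 181 with DESeq2, which also called 8 pathway genes. The cause of these differences was not tested. Other scalings, pseudocounts, filters and the fit without the trend moved no member across the threshold. The share of Adcy1 in saline mice was 36.9% to 42.8% with a mouse left out and 40.2% with the longest transcript as length. No paired analysis was possible because the groups share no mouse number.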
